A study of Rattus norvegicus with 6 samples.

Results

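Newly formed oligodendrocytes are the committed, premyelinating cells between the dividing precursor and the myelinating oligodendrocyte. Marker genes of that stage were followed in cultured rat oligodendrocyte precursor cells with and without fibrils of alpha-synuclein, which forms inclusions in oligodendrocytes in multiple system atrophy. The markers were chosen by symbol: Enpp6, Bcas1, Itpr2, Tmem98, Sirt2 and Nfasc. Of these 6, 5 matched a row by symbol among the 32662 genes of the deposited table, and all 5 passed the filter for testing (at least 1 FPKM in at least 3 libraries). Itpr2, which encodes an inositol trisphosphate receptor that releases calcium from the endoplasmic reticulum, was not analysed here.

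Primary cells from the cerebral cortex of Sprague-Dawley pups aged 1 to 2 days were collected as the non-adherent fraction of mixed glia kept in 20% serum, and then grown for 4 to 5 days in defined medium with PDGF and FGF (10 ng/ml each) and 2% B27, per the labels' protocols. PDGF and FGF keep precursors dividing. Both groups shared strain, tissue and medium: 3 control libraries without fibrils and 3 libraries from cells kept for 72 hours with fibrils preformed from human alpha-synuclein. Whether replicates were separate cultures or litters is not said in the labels, and the spread behind each p-value may therefore be technical. A non-adherent fraction of mixed glia can hold other cell types, and no sort of the cells is given. In bulk RNA, fewer cells of a type and less RNA per cell cannot be told apart.

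As a precursor leaves the cell cycle it switches off receptors such as Pdgfra, extends processes and, before it wraps any axon, begins to make membrane, cytoskeletal and adhesion proteins for the sheath. Enpp6 and Bcas1 are used to find these cells because they are most evident in the interval before compact myelin is made. The transcription factor Myrf then drives the myelin genes.

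The libraries were uneven. FPKM (fragments scaled by gene length and by the library's total) are not counts, and the number of fragments is unknown. From the steps between low values, the FPKM that a single fragment adds was 4.06 times that of control replicate 2 in control replicate 1 and 6.99 times in fibril replicate 1, the shallowest libraries; in the remaining 3 it was 0.811 to 1.94 times. Of the summed FPKM, mitochondrial genes made up 80.3% and 75.6% in these replicate 1 libraries and 12% to 40.1% in the rest. Defining genes of the labelled cell type were present: Olig2, a transcription factor of the lineage, had 198 to 733 FPKM, Sox10, another, 135 to 332 FPKM, and Pdgfra 43.4 to 304 FPKM over the 6 libraries.

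The sequences upstream of the markers whose control and fibril libraries did not overlap are shown here, since the results turn on these genes: 250 bases before a start site, from RefSeq on build GRCr8, each 5′ to 3′ on the gene's own strand. RefSeq start-site entries matched 5 of the 6 symbols, and Bcas1 had none. Each window was searched on both strands for CAGCTG, an E-box of the kind that Olig and other basic helix-loop-helix factors bind, for ACAAAG, a core bound by SOX proteins, for ATCAAAG, a core bound by Tcf7l2 and its relatives, and for CTGGCAC or CTGGTAC, forms of the Myrf motif. Matches are in capitals, and no window printed had matches that overlap each other. The Enpp6 window is chr16:52026729-52026978 (minus strand), the Sirt2 window chr1:93181222-93181471 (plus strand) and the Nfasc window chr13:46701165-46701414 (minus strand).

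Enpp6: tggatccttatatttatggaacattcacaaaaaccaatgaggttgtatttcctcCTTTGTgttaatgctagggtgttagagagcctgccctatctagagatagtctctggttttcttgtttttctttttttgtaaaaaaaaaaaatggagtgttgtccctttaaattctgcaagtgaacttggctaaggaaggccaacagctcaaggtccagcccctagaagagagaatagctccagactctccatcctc

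Sirt2: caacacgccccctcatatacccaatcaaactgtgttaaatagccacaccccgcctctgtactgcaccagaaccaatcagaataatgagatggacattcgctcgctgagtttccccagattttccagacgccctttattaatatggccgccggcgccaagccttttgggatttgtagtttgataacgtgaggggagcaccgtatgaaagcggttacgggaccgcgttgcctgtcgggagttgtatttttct

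Nfasc: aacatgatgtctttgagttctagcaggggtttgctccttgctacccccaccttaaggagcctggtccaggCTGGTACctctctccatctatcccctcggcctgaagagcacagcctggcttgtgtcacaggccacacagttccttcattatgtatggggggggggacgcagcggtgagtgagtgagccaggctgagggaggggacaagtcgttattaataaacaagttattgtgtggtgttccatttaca

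The Enpp6 window held 1 SOX core (as CTTTGT, its first base 196 bases before the start), and the Nfasc window held 1 Myrf motif (CTGGTAC, 180 bases before the start). The Sirt2 window held 0 matches to the 4 motifs, as did the Tmem98 window and a second Nfasc start site. Over all 33469 windows of the same length, 16.3% held the SOX core, 5.48% a Myrf motif, 12% the E-box and 3.15% the Tcf core. Such matches describe letters only. In base composition the windows differed: 40.0% G or C for Enpp6, 50% for Sirt2 and 52.8% for Nfasc, against 73.2% for Tmem98 and a median of 51.2% over all windows.

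The comparison asked whether cells that met fibrils carried more or less of these stage markers. Enpp6, Sirt2 and Nfasc were higher in every fibril library than in every control library. Bcas1 was higher with fibrils in each replicate number, but the groups overlapped, and Tmem98 was high in 1 fibril library. All 5 differences were positive, from 0.74 to 3.66 on the log2(FPKM + 1) scale, with a median of 2.04 beside -0.04 for the 10766 genes tested. Without a block for the replicate number, 0 of the 5 passed an adjusted p of 0.05 by limma (0% of all genes did). An unadjusted limma p under 0.05 was reached by 3 of 5, all higher with fibrils, against 2.21% of all genes in that direction and 4.02% in both. A log2 difference above 1 was found for 4 of 5, against 3.56% of all genes.

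Enpp6 encodes a membrane-anchored phosphodiesterase that releases choline phosphate from choline lipids. Its row (ENSRNOG00000009660, chromosome 16, 48315913 to 48437242 in the deposited table, whose build is not given in the sources used here) had 13.2, 1.14 and 2.78 FPKM in control replicates 1, 2 and 3, and 72.1, 43.9 and 69.5 FPKM in the fibril replicates. The lowest fibril library was thus above the highest control, and control replicate 1, of low depth, was the highest control. The means were 5.71 ± 6.54 and 61.8 ± 15.6 FPKM (SD, n = 3 each), a 10.8-fold ratio. The log2 difference was 3.66 (SE 0.66), the 10th highest of the genes tested, with a limma adjusted p of 0.304; without control replicate 1 it was 4.43 (0.0511). With the replicate number as a block the SE was 0.44 and Enpp6 rose (limma adjusted p = 0.0435), the only marker of the 5 to pass, where 0.111% of all genes passed in the higher direction. That call ended when libraries were scaled without mitochondrial genes (0.147), with a pseudocount of 0.1 (0.141) and under quantile normalization (0.058), each with the block.

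Within replicate numbers the Enpp6 difference was 2.36, 4.39 and 4.22 for replicates 1, 2 and 3. Its place among nuclear genes, which no scaling can move, was 3992nd, 10633rd and 9093rd from the top in controls and 1068th, 1370th and 1165th with fibrils. Every fibril library thus placed Enpp6 closer to the top than any control did.

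Nfasc encodes neurofascin, an adhesion molecule with a glial form that anchors myelin loops beside the node of Ranvier and a neuronal form at the node itself. The gene row (ENSRNOG00000030515, chromosome 13, 49335407 to 49522415) lists 3 start sites but has 1 value per library, so the forms cannot be told apart. Nfasc had 33.6, 14.4 and 44.1 FPKM in controls, against 121, 107 and 155 FPKM with fibrils. The groups did not overlap, and the highest control was replicate 3, not replicate 1. The mean went from 30.7 ± 15.1 to 128 ± 25.0 FPKM (SD, n = 3 each), with a log2 difference of 2.14 (SE 0.49). The limma adjusted p was 0.556 in the fit with no block and 0.0925 in the blocked fit. It passed with the block on replicates 2 and 3 only (0.0317), and on replicates 1 and 2 only, as happens when control replicate 3 (0.0198) or fibril replicate 3 (0.0169) is left out; each of these fits has 1 residual degree of freedom.

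Neurons also express Nfasc, so neuron markers were read beside it. Of 14 neuron markers 11 were tested and 0 of the 11 had a positive difference. Their summed level ran from 330 to 716 FPKM in controls and from 166 to 503 FPKM with fibrils, 4 of the 11 were lower in every fibril library (5.3% of all tested genes were), and the glutamate transporter genes Slc17a6 and Slc17a7 were listed at 0 in all 6 libraries. The part of neurons in the Nfasc values was not tested.

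Sirt2 encodes a deacetylase that uses NAD and acts on tubulin, and its protein is abundant in oligodendrocytes and myelin. Its row (ENSRNOG00000020102, chromosome 1, 86948917 to 86971952) had 728, 299.7 and 371 FPKM in controls, against 1769.7, 1297 and 2478 FPKM with fibrils. All 3 fibril libraries lay above all 3 controls, with means of 466 ± 230 and 1848 ± 594 FPKM (SD, n = 3 each). The log2 difference was 2.04 (SE 0.62; limma adjusted p = 0.96, and 0.219 in the blocked fit). In the blocked fit on replicates 1 and 2 only, with 1 residual degree of freedom, the adjusted p was 0.0488 with fibril replicate 3 left out and 0.0573 with control replicate 3 left out. Sirt2 ranked 83rd, 150th and 73rd among nuclear genes in controls and 22nd, 22nd and 16th with fibrils.

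Bcas1 encodes a protein that marks oligodendrocytes in the act of starting myelination. It was the most abundant of the 5, and its row (ENSRNOG00000012906, chromosome 3, 167957993 to 168033457) had 4033, 711 and 725 FPKM in controls, against 6463, 2616 and 2039.8 FPKM with fibrils. Both replicate 1 libraries stood high, so control replicate 1 lay above fibril replicates 2 and 3 and the groups overlapped. Within replicate numbers the difference was 0.68, 1.88 and 1.49, higher with fibrils in 3 of 3. The pooled log2 difference was 1.35 (SE 0.92; limma adjusted p = 0.96, and 0.481 with the block), without control replicate 1 it was 2.18 (0.569), and without fibril replicate 1 it was 0.86 (0.849). Among nuclear genes Bcas1 was 5th, 53rd and 14th from the top in controls and 4th, 2nd and 27th with fibrils, so the controls already carried it at a level near the top. The deposited table has 0 other genes whose coordinates overlap any of the 5 markers.

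Tmem98 encodes a membrane protein that binds Myrf and holds back the self-cleavage that frees it to enter the nucleus. Its row (ENSRNOG00000021316, chromosome 10, 68173368 to 68184320) had 3.69, 2.58 and 3.12 FPKM in controls, against 5.66, 2.28 and 13.7 FPKM with fibrils. Fibril replicate 2 was the lowest of all 6 libraries and fibril replicate 3 the highest. The log2 difference of 0.74 (SE 0.55; limma adjusted p = 0.96, and 0.53 with the block) became 0.19 without fibril replicate 3 and 1.27 without fibril replicate 2. Within replicate 2 it was -0.12, the only negative value of any marker in any replicate number.

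**Figure D1:**
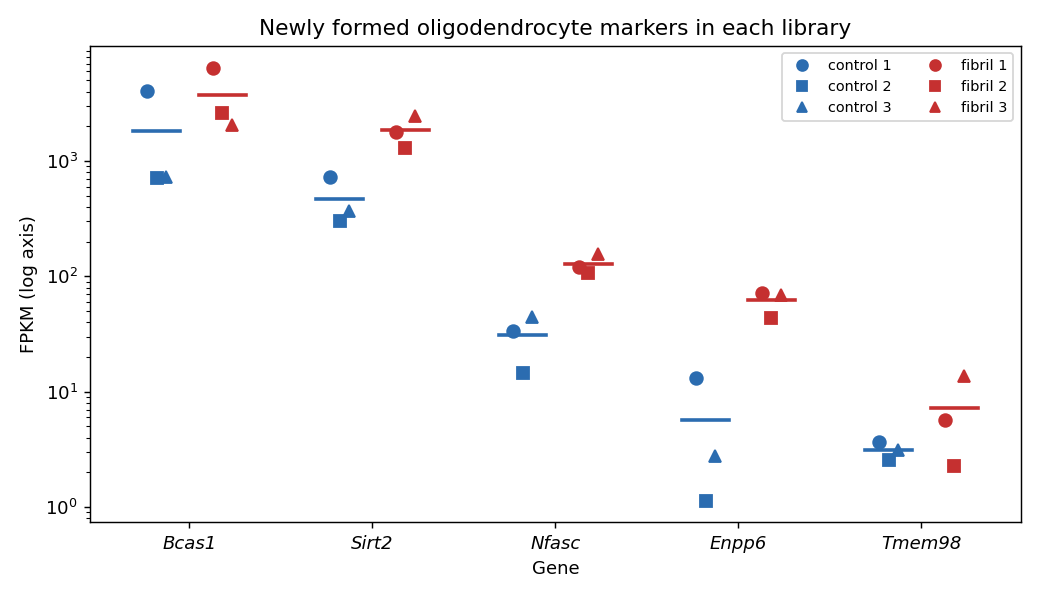
FPKM (log axis) of the 5 markers in the 3 control (blue) and 3 fibril (red) libraries, with a marker shape per replicate number and a line at each group's mean. The groups do not overlap for Sirt2, Nfasc and Enpp6, while for Bcas1 control replicate 1 (4033 FPKM) lies above fibril replicates 2 and 3.

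Counted over the markers, the groups did not overlap for 3 of 5, all higher with fibrils, where 4.24% of all tested genes were so placed and 5.3% were lower in every fibril library. In 3 of 3 replicate numbers 4 of 5 were higher, against 16.9% of all tested genes. The markers were named with earlier results of these data known, so these shares describe them and are not a test. Tested singly by exact permutation (two-sided), Enpp6, Sirt2 and Nfasc each gave p = 0.1, the smallest that 3 against 3 allows, Bcas1 gave 0.3 and Tmem98 0.4.

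**Figure D2:**
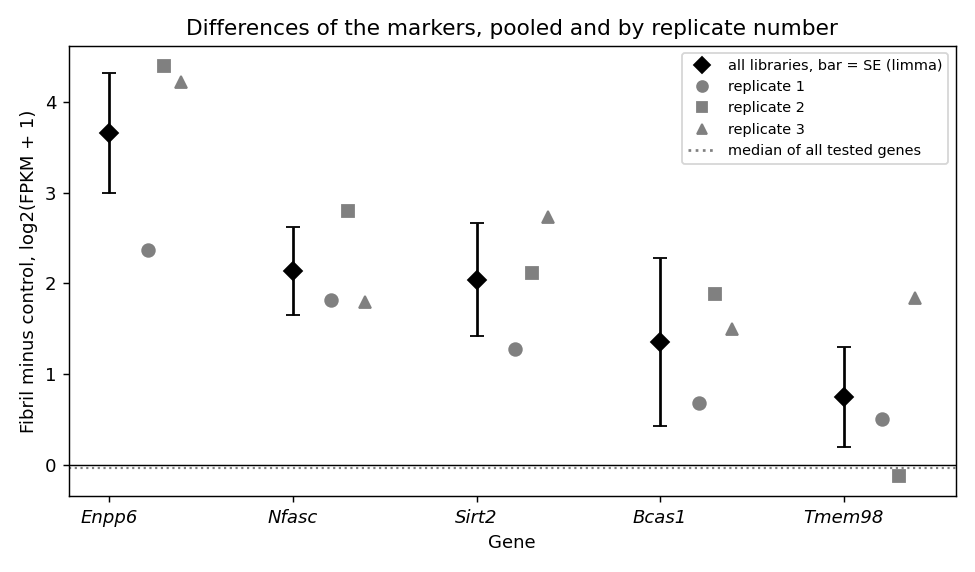
Fibril minus control difference in log2(FPKM + 1) for each marker: black diamonds are all libraries with the SE from limma, grey shapes the difference within each replicate number, and the dotted line the median of all tested genes (-0.04). Enpp6 is highest at 3.66 and Tmem98 lowest at 0.74, with a value below 0 in replicate 2.

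By mean FPKM the order of the markers was the same in both groups: Bcas1, Sirt2, Nfasc, Enpp6 and Tmem98. Single libraries did not all keep it. Enpp6 was above Tmem98 in 1 of 3 controls, replicate 1, so the place of this pair in controls rests on that library. With fibrils, Bcas1 was above Sirt2 in 2 of 3 libraries. In controls, Bcas1 and Sirt2 overlapped in range, as did Enpp6 and Tmem98 (5.71 ± 6.54 and 3.13 ± 0.55 FPKM, SD, n = 3), while Sirt2 and Nfasc, and Nfasc and Enpp6, did not. With fibrils, Bcas1 (3706 ± 2404 FPKM) and Sirt2 overlapped and every other neighbouring pair was apart: the lowest Enpp6 value of 43.9 FPKM lay above the highest Tmem98 value of 13.7 FPKM.

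The size of the difference was compared between markers over all 10 pairs. Enpp6 had a larger log2 difference than each of the other 4, by 2.31 over Bcas1 (SD 0.55 over the 3 replicate numbers), 2.92 over Tmem98 (SD 1.41), 1.62 over Sirt2 (SD 0.61) and 1.52 over Nfasc (SD 0.95), in 3 of 3 replicate numbers each. In these 4 pairs the ratio of the genes did not overlap between the groups, which gives the smallest exact permutation p of 0.1 (0.2 adjusted over the 10 pairs). The same held for Tmem98 and Sirt2, which differed by -1.30 (SD 0.81). Sirt2 and Nfasc differed by -0.09 (SD 0.90; exact permutation p = 1), with replicate 3 in the opposite direction to replicates 1 and 2. With 3 libraries a group, no pair can pass 0.05.

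Levels were also set against regulators that every stage of the lineage expresses, by subtracting each library's mean log2(FPKM + 1) of Olig1, Olig2 and Sox10. Those 3 genes had differences of -0.31, -0.41 and 0.32, and limma adjusted p of 0.966 to 0.974. On this relative scale Enpp6 was at -4.24, -7.10 and -6.65 in controls and -1.71, -2.50 and -2.39 with fibrils. Sirt2 was at 1.45, 0.04 and -0.03 against 2.89, 2.36 and 2.74, and Nfasc at -2.95, -4.24 and -3.08 against -0.97, -1.24 and -1.25. These 3 genes again did not overlap between groups, and Bcas1 and Tmem98 again did. Sox10, itself part of the reference, also did not overlap on this scale (difference 0.45), while Olig1 and Olig2 did. The relative differences were 3.79, 2.18 and 2.27 for Enpp6, Sirt2 and Nfasc, 1.49 for Bcas1 and 0.88 for Tmem98.

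Other scalings kept each sign. Scaling to equal totals without mitochondrial genes moved the median of all genes to -0.30, and the differences were then 3.42 for Enpp6, 1.83 for Nfasc, 1.73 for Sirt2, 1.04 for Bcas1 and 0.48 for Tmem98. Quantile normalization gave 3.78, 1.93, 1.46, 0.67 and 0.83 in the same order. Bcas1, Sirt2 and Nfasc had smaller differences under quantile normalization than as deposited, and Enpp6 and Tmem98 larger ones.

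**Figure D3:**
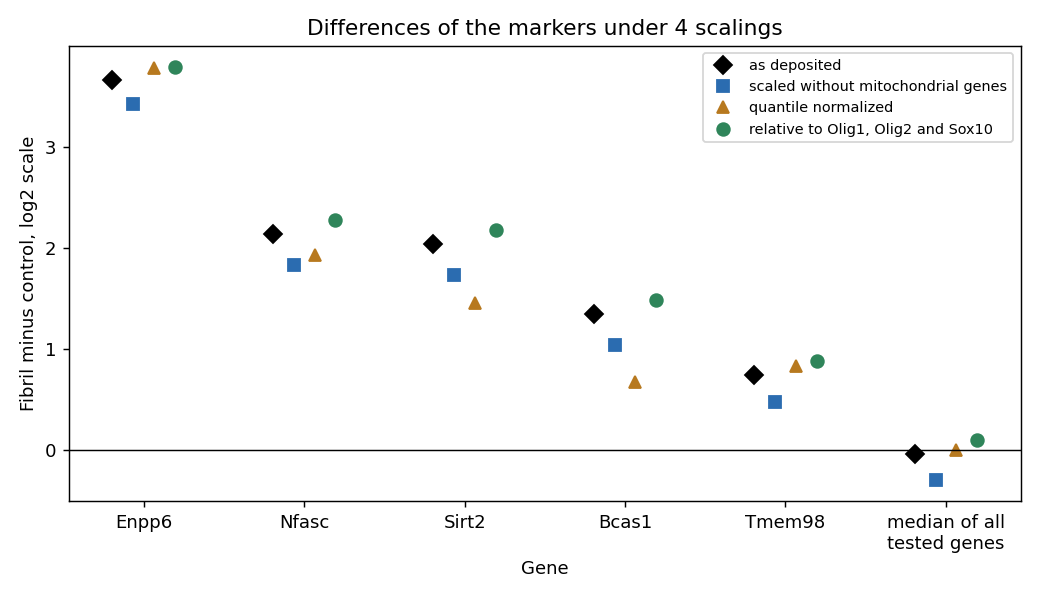
Fibril minus control difference of the 5 markers, on the log2 scale, under 4 scalings of the libraries, with the median of all tested genes at the right for each. Every marker lies above 0 under each scaling, and Bcas1 moves most, from 1.35 as deposited to 0.67 under quantile normalization.

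Other genes of the same stage were taken from a list of 28, of which 22 were tested. Of these, 19 had positive differences, against 47.0% of all tested genes, with a median of 0.58. By limma 0 passed in either fit, blocked or not, 7 had an unadjusted p under 0.05 (all higher, against 2.21% of all tested genes) and 7 had every fibril library above every control (4.24% of all). Tmem108, Chn2, Cnksr3, Bmp4, Dynll2 and Myrf are given because their unadjusted p was the smallest of the 22, so they are not typical of the list. Their limma adjusted p ran from 0.383 to 0.96. Tmem108 had 9.81, 3.50 and 7.87 FPKM in controls, against 28.4, 33.2 and 66.2 FPKM with fibrils. Chn2, which encodes a GTPase-activating protein for Rac, had 31.1, 8.83 and 11.1 against 102, 54.6 and 72.9 FPKM. Cnksr3, a scaffold gene, and Bmp4, a secreted ligand made by committed cells, were apart between groups at lower levels: Cnksr3 had 0.939 to 1.57 against 3.84 to 8.48 FPKM, and Bmp4 had 1.99 to 9.31 against 10.8 to 18.9 FPKM. Dynll2, a light chain of the dynein motor, had 107 to 441 against 604 to 1178 FPKM.

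Myrf, the factor that Tmem98 binds, had 30.7, 12.02 and 31.6 FPKM in controls, against 45.6, 60.6 and 83.9 FPKM with fibrils, with a log2 difference of 1.39 (limma adjusted p = 0.96). Its groups did not overlap as deposited, while those of Tmem98 did; scaled without mitochondrial genes the Myrf groups overlapped too, with control replicate 3 at 43.4 above fibril replicate 1 at 38.2 FPKM. Tcf7l2, a transcription factor of the committed stage, followed the replicate 1 pattern of Bcas1, with 61.4, 6.75 and 15.7 against 82.8, 26.2 and 31.8 FPKM. Gpr17, a receptor that is switched on at commitment and off before myelination, was 1 of the 3 tested genes with a negative difference: it had 370, 123 and 463 FPKM in controls, against 246, 279.8 and 78.5 FPKM with fibrils, a log2 difference of -0.65 (limma adjusted p = 0.96). Its groups overlapped, and in replicate 2 it was higher with fibrils.

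Along the lineage the median difference was -0.90 for 16 tested precursor genes, -0.32 for 5 lineage regulators, 0.58 for the other premyelinating genes, 2.04 for the 5 markers and 1.28 for 17 tested myelin genes. Of the precursor genes 2 had positive differences, and of the myelin genes 13. Within replicates 1, 2 and 3 the precursor median was -0.39, -0.41 and -1.84, so its size rests largely on replicate 3. Mag, an adhesion protein of myelin, had 4.94, 2.33 and 7.64 FPKM in controls, against 41.1, 41.8 and 152 FPKM with fibrils, a log2 difference of 3.55 (limma adjusted p = 0.228 without a block). Mag rose in the fit with the block (limma adjusted p = 0.0267), as did 1 other of the 17 tested myelin genes, where 0.111% of all tested genes passed in the higher direction. The labels state no pairing. In the blocked fit scaled without mitochondrial genes 1 of 10766 genes passed, so these myelin calls cannot both hold there. Cnp, an enzyme of uncompacted myelin, had 466, 220.4 and 327 against 960.2, 708 and 1761 FPKM and passed in neither fit (0.96 and 0.295). Pdgfra had 47.5, 146 and 304 FPKM in controls, against 43.4, 95.3 and 60.2 FPKM with fibrils, so its groups overlapped. The range within each list was wide, from -1.15 to 3.94 for the myelin genes, and the lists were not compared by a test.

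**Figure D4:**
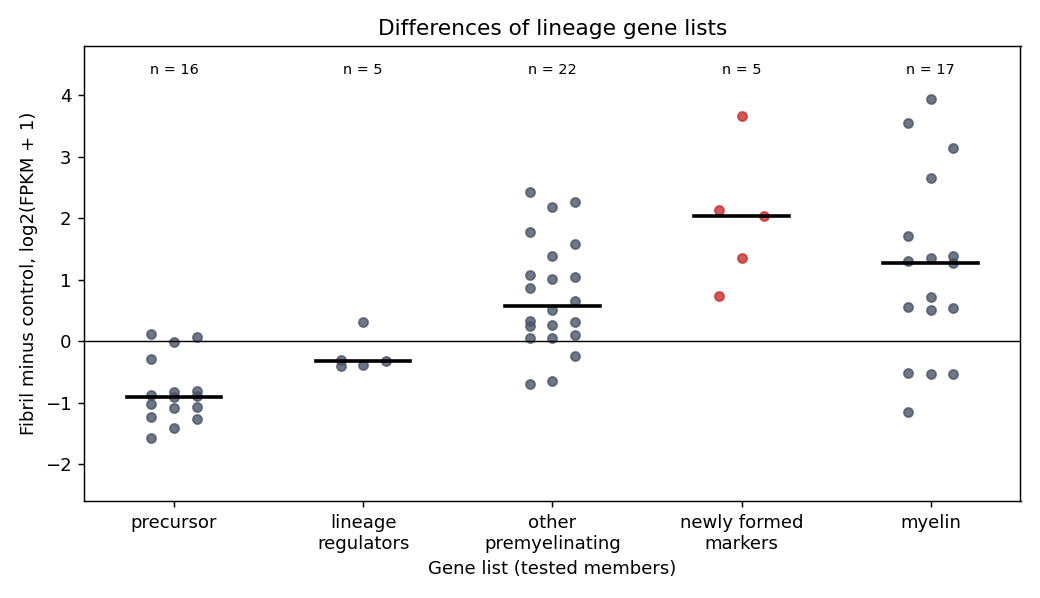
Fibril minus control difference in log2(FPKM + 1) of each tested gene in 5 lists, with a line at the median and the number of tested genes above. The newly formed markers (red) have a median of 2.04 and lie wholly above 0, while 14 of 16 precursor genes lie below 0.

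Relatives and partners of the markers were read from lists by function. Of the 6 other Enpp genes 3 were tested and 0 passed with or without a block. Enpp2, which makes lysophosphatidic acid outside the cell, had 17.3, 19.2 and 37.0 FPKM in controls, against 31.7, 34.1 and 37.5 FPKM with fibrils, and Enpp5 had 26.6, 35.3 and 44.3 against 36.0, 27.3 and 37.2 FPKM. Enpp4 had 4.15, 1.61 and 2.57 against 6.71, 3.55 and 4.38 FPKM. The control libraries thus held more Enpp2 and Enpp5 than Enpp6 in every replicate, and the fibril libraries more Enpp6 than either. Among 11 tested genes of choline lipid handling, 5 had positive differences and 0 passed. The choline transporter gene Slc44a1 had 103, 48.2 and 74.9 FPKM against 179, 101 and 172 FPKM, a log2 difference of 1.01 (limma adjusted p = 0.96), and the phosphodiesterase genes Gdpd1 and Gde1 had 0.24 and 0.45.

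The level of Sirt2 was above those of its relatives. Of 8 genes in a list of sirtuins and associated enzymes, 7 were tested and 0 passed. Among the 7, Sirt7 was higher in every fibril library (4.24% of all tested genes were), with a log2 difference of 0.64. Sirt1 was lower in every fibril library (5.3% of all tested genes were), with a log2 difference of -0.72. Sirt6 had 7.43 to 21.3 FPKM in controls, against 10.4 to 27.4 FPKM with fibrils, Sirt5 7.74 to 15.3 and 10.2 to 21.6 FPKM, and Nampt, which makes an NAD precursor, 9.57 to 16.4 and 8.40 to 16.4 FPKM. Their differences were 0.19, 0.21 and 0.01. The lowest Sirt2 value of any library, 299.7 FPKM, lay above every value of these 3 genes.

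Partners of neurofascin at the axon-glia junction did not share its direction as a list: 3 of 10 tested genes had positive differences, the median was -0.31 and 0 passed. Within replicates 1, 2 and 3 the list's median was 0.20, -0.24 and -1.22, so its negative sign rests mostly on replicate 3. Cntn1, which encodes a contactin, had 56.3, 194.8 and 316 FPKM in controls, against 48.8, 128 and 23.2 FPKM with fibrils, a log2 difference of -1.51 (limma adjusted p = 0.96). Cadm4, an adhesion gene of myelinating glia, had 48.5, 206 and 251 against 63.1, 206 and 422 FPKM, and the spectrin gene Sptbn1 had 34.3, 40.8 and 64.8 against 57.8, 68.3 and 18.4 FPKM. Cntnap1, whose product pairs with contactin at the paranode, was at or below 0.316 FPKM in every library.

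The calcium release list had 8 of 14 genes tested, with 4 positive differences and 0 passing. The receptor genes Itpr1 and Itpr3 were at most 0.49 and 0.109 FPKM. Atp2a2, the calcium pump of the endoplasmic reticulum, had 57.0, 38.3 and 78.4 FPKM in controls, against 54.8, 45.9 and 47.4 FPKM with fibrils, and Plcg1 and Orai1 had differences of -0.11 and 0.25.

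Markers of other cells were read beside these results, for their whole lists. Of 14 astrocyte markers 12 were tested and 3 had positive differences. The list's summed level was 257 to 306 FPKM in controls, against 143 to 316 FPKM with fibrils, and Gjb6 was listed at 0 throughout. An unadjusted limma p under 0.05 was reached by 1 higher and 5 lower (4.02% of all tested genes in both directions). In every fibril library 4 of the 12 were lower (5.3% of all tested genes) and 1, Gfap, was higher (4.24%). Gfap had 0.643, 0.370 and 0.733 FPKM in controls, against 3.69, 6.20 and 24.8 FPKM with fibrils (limma adjusted p = 0.564). Gfap, and Slc4a4 among the lower genes, passed the filter through 1 group only, so their groups were bound not to overlap. Both are also counted among the genes with an unadjusted p under 0.05. The shares over all tested genes are no measure for either gene, by overlap or by p. Of 14 microglia and macrophage markers 7 were tested and 5 had positive differences, with sums of 2.05 to 47.2 FPKM in controls and 13.5 to 62.6 FPKM with fibrils. An unadjusted limma p under 0.05 was reached by 2 of the 7, both higher (2.21% of all tested genes), and 1 of them was higher in every fibril library (4.24%). That gene, Cd14, a receptor for bacterial lipopolysaccharide, had 0, 0.260 and 0.0708 FPKM in controls, against 2.39, 10.63 and 3.23 FPKM with fibrils (limma adjusted p = 0.5). Cd14 passed the filter through the fibril libraries only, so its groups were bound not to overlap. Neither the 4.24% nor the 2.21% is a measure for it. The other, Tyrobp, a signalling adaptor, had 0, 4.48 and 0 FPKM and then 1.93, 18.7 and 8.76 FPKM (0.96), and its groups overlapped. Within the microglia list, Cx3cr1 and Tmem119 were at most 0.8 and 0.391 FPKM in any library. Other genes of that list went higher: Aif1 and Cd68 reached 9.94 and 14.3 FPKM in fibril replicate 2, and C1qa 10.3 FPKM in control replicate 2. Of 8 fibroblast and mural genes and 6 endothelial genes 0 were tested, and their sums were at most 0.877 and 0.407 FPKM. The part of these cells in the marker differences was not tested.

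The genes whose profile over the 6 libraries was most like the mean of the standardised marker profiles, among 7487 with a mean of at least 5 FPKM, were Stx2, Pnlip, Arhgef10, Spsb1 and Rap1gds1, with Pearson r of 0.996, 0.994, 0.993, 0.992 and 0.991. Stx2, which encodes a membrane fusion protein of the syntaxin family, had 42.2, 17.3 and 22.3 FPKM in controls, against 83.1, 59.6 and 94.4 FPKM with fibrils. Taken singly, the closest gene was Stx2 for Enpp6 (r = 0.993), Zfp365 for Bcas1 (0.988), Zswim1 for Tmem98 (0.995), Dbndd2 for Sirt2 (0.997) and Aatk for Nfasc (0.976). Dbndd2 had 24.5, 9.29 and 13.7 FPKM against 86.6, 57.3 and 124.6 FPKM. Among the markers themselves r ran from 0.98 for Enpp6 and Sirt2 to 0.29 for Bcas1 and Tmem98. With 6 libraries that share 2 groups and the same depth pattern, values this high describe the profiles only.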

How the data were processed

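The authors deposited 1 table of FPKM per gene and library, per the file headers. The submitters' processing notes name Trimmomatic and FastQC with no version, and the library kit was strand-specific per the labels' protocols. The sources used here give no aligner, quantifier or build. The analysis used log2(FPKM + 1) of the 10766 genes that reached 1 FPKM in 3 or more libraries. On this scale the change of low genes is understated. The test was limma 3.58.1 (R 4.3.3; mean-variance trend, two-sided, Benjamini-Hochberg over all tested genes, threshold 0.05), checked on simulated data. The simulated noise was scaled down from the within-group spread and was independent between libraries. That check thus does not cover the noise of these data. Relative fragment worth came from genes below 0.1 FPKM in control replicate 2, by the offset at which most ratios agreed within 0.03 (log2).

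Both groups are numbered 1 to 3 in the labels, and the deviations of same-numbered libraries from their group means correlated at 0.747, 0.364 and 0.216. All exceeded 0.1, so a blocked value stands beside each result whose call it changes. The labels state no pairing, and the crossed pairs of replicates 2 and 3 were above their own numbers: 0.5 for control 3 with fibril 2, and 0.433 for control 2 with fibril 3.

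The members and lists were chosen with earlier results of these data known. Named genes followed a rule: all markers; from the other premyelinating genes the 6 with the smallest p, and Gpr17, Myrf and Tcf7l2; up to 3 tested genes of highest mean from each functional list; the genes of most similar profile; and Mag, Cnp, Pdgfra, Cspg4, Olig1, Olig2 and Sox10 where compared. Itpr1, Itpr3, Cntnap1, Cd14, Tyrobp, Cx3cr1, Tmem119, Aif1, Cd68, C1qa, Gfap, Slc4a4, Sirt1, Sirt7 and the markers listed at 0 were named after their values were seen. The result of 1 marker list is not reported here.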

Additional observations from a re-analysis of the deposited data

How the results depend on the processing

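All 5 markers kept a positive difference under every alternative run: other pseudocounts, filters and scalings, no mean-variance trend, the replicate block, replicates 2 and 3 only, and each library left out. The groups of 3 or 4 of the 5 did not overlap. Alternatives that combine the block with fewer libraries or with quantile normalization, and the scale relative to Olig1, Olig2 and Sox10, were chosen after seeing the data. The marker median of 2.04 was 1.46 under quantile normalization, with or without the block, and 1.69 to 2.27 with 1 library left out; the cause was not tested.

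Without a block 0 markers, 0 other premyelinating genes and 0 genes in all passed, except 1 gene with no mean-variance trend; with 1 library left out 0 to 3 genes passed, the 3 without fibril replicate 3. With the replicate block 1 marker (Enpp6) and 12 genes passed. In the block fit 1 gene and 0 markers passed when scaled without mitochondrial genes, 5 and 0 with a pseudocount of 0.1, 3 and 1 with a pseudocount of 5, and 15 and 0 under quantile normalization. The block on replicates 2 and 3 only gave 132 genes, 2 markers and 3 other premyelinating genes. Leaving out control or fibril replicate 3 under the block gave 36 or 45 genes, 2 or 3 markers and 2 other premyelinating genes. Each of these fits on fewer libraries has 1 residual degree of freedom. The block changed no other marker's call with all libraries. The replicate 1 libraries are the shallowest.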
